A study of Mus musculus with 8 samples.

Results

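The 39 genes described here encode nuclear-encoded parts and assembly factors of 3 enzymes of the inner mitochondrial membrane, complex II, complex III and ATP synthase. They are the protein-coding genes of the deposited table whose symbols begin with Sdhaf, Uqc, Atp5 or Atpaf, or are Sdha to Sdhd or Bcs1l, and they are 39 of the 27110 genes listed. The set holds 4 subunits of complex II, 8 of complex III, 16 of ATP synthase, 10 assembly factors and Atp5s, coupling factor B, which is described apart. Some nuclear-encoded parts and factors, such as Cyc1 of complex III, have other symbols and are described further below. All 39 passed the filter on low counts that left 16420 genes in the test.

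Total RNA was sequenced from bulk livers of mice at week 7, all with the treatment label NT. LKO livers (4 libraries, all female) carry a liver-restricted deletion of Pkd1l1, a polycystin-family gene that the study examines as a candidate gene for biliary atresia. Fl/Fl livers carry the floxed allele, and of their 4 libraries 3 are female (replicates 5, 7 and 9) and 1 is male (replicate 10). The labels give hepatocytes and cholangiocytes as the cell type but tissue as the source. They do not name the driver of the deletion, and they do not say whether the livers came from separate litters.

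Complex II, succinate dehydrogenase, passes electrons from succinate to ubiquinone and is also an enzyme of the citric acid cycle. Complex III passes electrons from ubiquinol to cytochrome c and pumps protons, and ATP synthase lets the protons flow back through a rotating ring to make ATP. Hepatocytes are rich in mitochondria and use this ATP for urea, bile acid and glucose synthesis. All subunits of complex II are encoded in the nucleus, while cytochrome b of complex III and the a and A6L subunits of ATP synthase are encoded by mitochondrial DNA.

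The libraries held 71491723 to 76622375 reads assigned to genes. Pkd1l1 had 0, 0, 0 and 2 reads in LKO replicates 3, 4, 12 and 13, against 0, 1 and 1 reads in female Fl/Fl replicates 5, 7 and 9 and 0 in the male library, so its reads cannot check the genotype labels. The 5 hepatocyte markers summed to 110444 to 124323 CPM (reads scaled to library size) in LKO, 116592 to 124712 CPM in female Fl/Fl and 72518 CPM in the male library, and the 5 cholangiocyte markers to 39.9 to 52.6, 48.9 to 57.5 and 43.5 CPM. Of 11 marker lists, the 9 of liver and blood cell types held no gene past the threshold in the edgeR test, with 2 of 5 neutrophil and 3 of 5 erythroid markers tested. No muscle or fat marker had enough reads to be tested. In these bulk samples fewer cells of a type and less RNA per cell cannot be told apart. The libraries also fell into 2 sets by genes of the circadian clock: Dbp, a clock output gene, stood at 0.606 and 1.64 CPM in LKO 3 and 4 and at 54.4 and 42.2 CPM in LKO 12 and 13, against 2.46 and 3.5 CPM in Fl/Fl 5 and 7, 26.8 CPM in Fl/Fl 9 and 46.1 CPM in the male library. Fos, an immediate-early gene, reached 4.87 to 12.7 CPM in LKO, against 298, 264 and 30.7 CPM in Fl/Fl 5, 7 and 9, with 4.78 CPM in the male library. Junb, another such gene, stood at 43.0 to 63.2 CPM in LKO, against 200, 175 and 163 CPM in Fl/Fl 5, 7 and 9. The male library held 49.9 CPM of Junb, and its log2 fold change, LKO over female Fl/Fl, was -1.88 (adjusted p = 0.00127 by edgeR). Leaving out Fl/Fl 5 and 7 therefore does not leave a female control with Junb at the LKO level. The labels record no time of collection. Results without Fl/Fl 5 and 7 and within each Dbp set are given near the end.

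RNA of several small subunits was more abundant in LKO livers than in female Fl/Fl livers. Of the 39 genes, 5 rose (12.8%) and none fell at an adjusted p below 0.05 in edgeR's quasi-likelihood test, where 1.41% of the 16420 tested genes passed in either direction, 1.02% rose and 0.396% fell. The 5 were the complex III subunits Uqcr11 and Uqcrq, the ATP synthase subunits Atp5g3 and Atp5e, and the complex III assembly factor Uqcc2. The log2 fold change, LKO over female Fl/Fl, was above 0 in 35 of the 39 genes, against 49.5% of all tested genes, and its median was 0.17, against -0.0032 over all tested genes. At an unadjusted p below 0.05, 15 of the 39 were higher and 0 lower in LKO, where 9.22% of all tested genes were higher and 6.86% lower. Every LKO value lay above every female Fl/Fl value in 17 of the 39 genes (43.6%), against 8.85% of all tested genes, and below in 0, against 6.22%. The 39 genes together took 0.619 to 0.653% of the reads in LKO, 0.544 to 0.616% in female Fl/Fl, with 0.648% for the male.

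**Figure D1:**
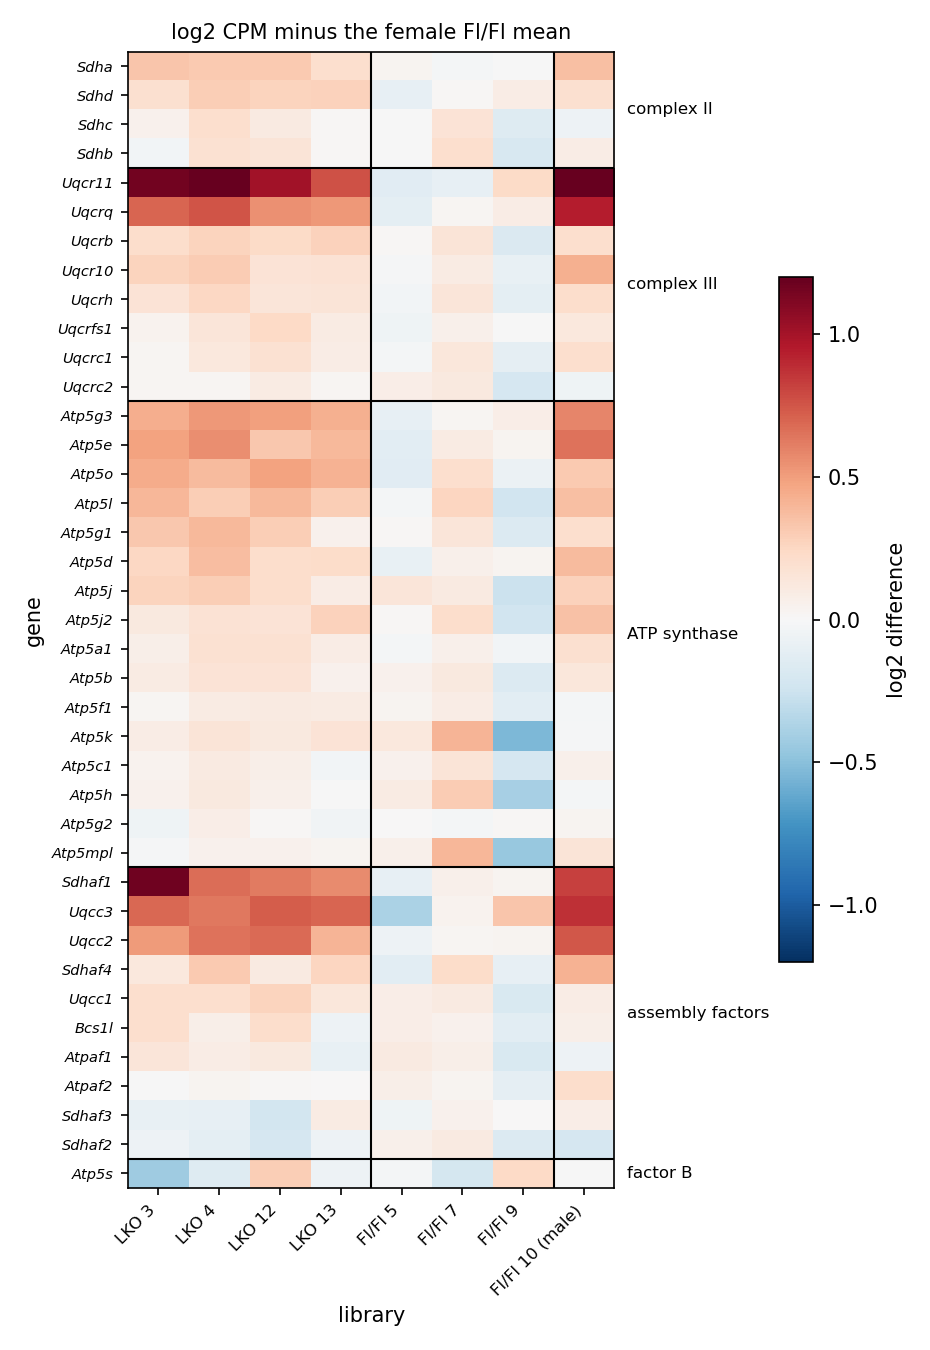
Level of each of the 39 genes (rows, by complex) in each of the 8 libraries (columns, LKO left of female Fl/Fl, the male library last), as log2 CPM minus the mean of the 3 female Fl/Fl libraries. Red is higher and blue lower; colours end at 1.2 in both directions. The median over the 39 genes was 0.10 to 0.20 in the 4 LKO libraries, -0.11 in Fl/Fl 9, -0.0026 in Fl/Fl 5, 0.099 in Fl/Fl 7 and 0.20 for the male.

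The male is not part of either group mean in these fold changes, since the fit gives it a sex term of its own. It still enters the filter and the scaling, and without it 16856 genes were tested and 4 of the 39 passed. In 29 of the 39 genes the male level was closer to the LKO average than to that of female Fl/Fl, against 60.1% of all tested genes. That level was above all 4 LKO libraries in each of the 5 genes that rose. With 1 male library, sex and the individual liver cannot be told apart.

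None of the 4 complex II subunits passed the edgeR test, while Sdha and Sdhd had an unadjusted p below 0.05 and DESeq2 passed Sdha. Sdha, the flavoprotein that holds the succinate site, had 530, 524, 521 and 483 CPM in LKO 3, 4, 12 and 13, against 429, 412 and 418 CPM in female Fl/Fl 5, 7 and 9, and 538 CPM in the male library. Every LKO value was above every female Fl/Fl value, with a fold of 1.23 (log2 0.29 ± 0.083, SE, adjusted p = 0.115 by edgeR). Sdhd, a membrane anchor and at 139 FPKM (reads scaled for gene length and library depth, the mean of 8 libraries) the highest of the 4 by the deposited gene length, had 168, 181, 177 and 179 CPM in LKO, against 138, 149 and 157 CPM in female Fl/Fl and 169 CPM in the male library. Its groups did not overlap either (log2 0.26 ± 0.083, adjusted p = 0.163 by edgeR). The other anchor, Sdhc, and the iron-sulphur subunit Sdhb overlapped between the groups, with log2 fold changes of 0.090 ± 0.097 and 0.073 ± 0.11. The median log2 fold change of the 4 was 0.17.

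In complex III the 2 genes that rose encode small subunits at the edge of the enzyme, and none of the core subunits passed the test. Uqcr11, the smallest subunit of the complex (ENSMUSG00000020163, chromosome 10, 80402997 to 80406830, mm10), had 79.2, 84.9, 71.4 and 60.4 CPM in LKO 3, 4, 12 and 13, against 32.4, 33.2 and 41.6 CPM in female Fl/Fl 5, 7 and 9. The male library held 98.1 CPM. The lowest LKO library was above the highest female Fl/Fl library, and the mean was 73.9 ± 10.6 CPM in LKO (SD, n = 4) and 35.7 ± 5.10 CPM in female Fl/Fl (SD, n = 3), a fold of 2.07 (log2 1.05 ± 0.13, adjusted p = 0.00954 by edgeR). It was the largest rise among the 39 genes. Uqcrq, the ubiquinone-binding protein QP-C (ENSMUSG00000044894, chromosome 11, 53427922 to 53430831), had 217, 225, 196 and 192 CPM in LKO, against 124, 136 and 142 CPM in female Fl/Fl and 258 CPM in the male library. Its groups were also apart, with a fold of 1.55 (log2 0.63 ± 0.095, adjusted p = 0.0171 by edgeR).

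**Figure D2:**
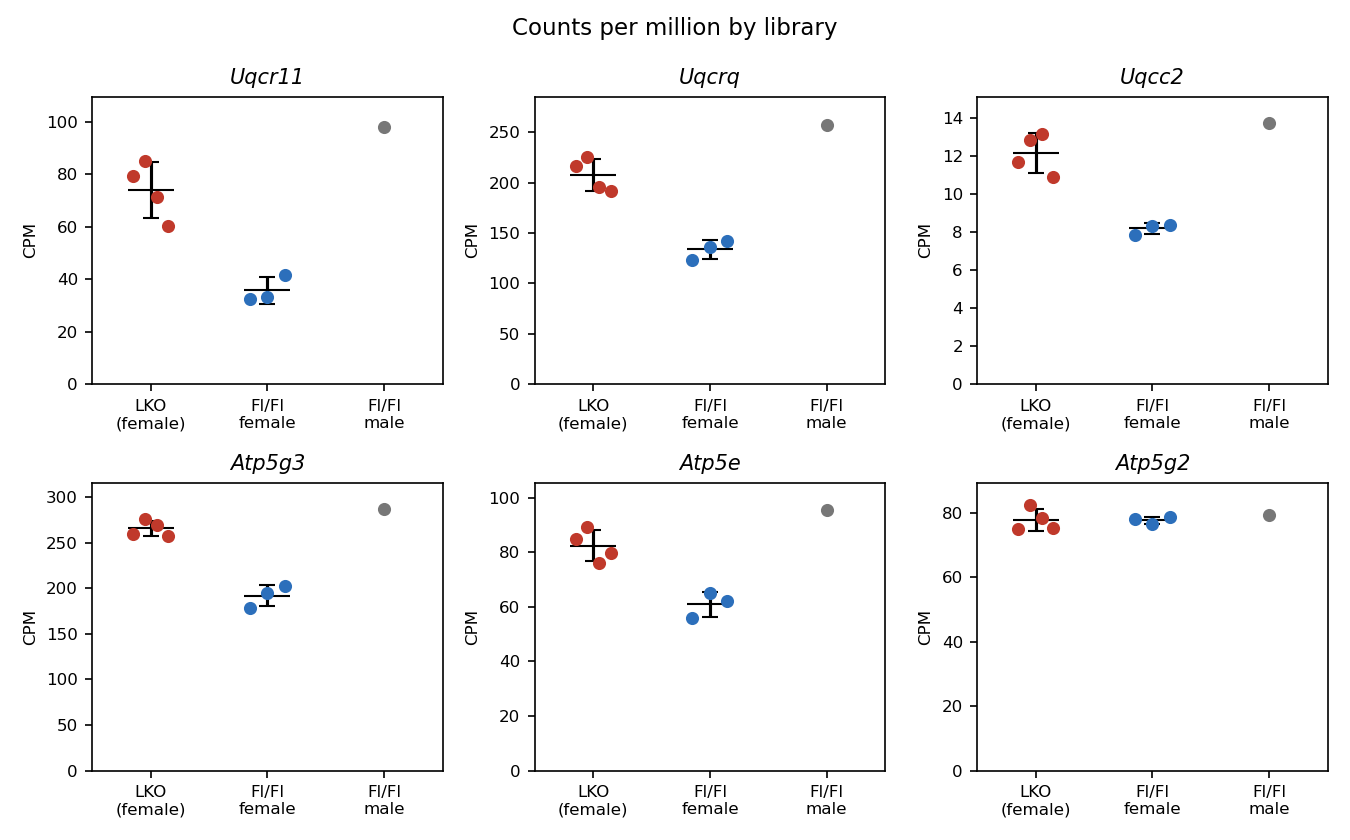
CPM by library of the 5 genes that rose in LKO and of Atp5g2, which did not. Red points are LKO (n = 4), blue points female Fl/Fl (n = 3) and the grey point the male Fl/Fl library; bars are mean ± SD and each axis starts at 0. Uqcr11 lies at 60.4 to 84.9 CPM in LKO and 32.4 to 41.6 CPM in female Fl/Fl, while Atp5g2 lies at 74.9 to 82.3 and 76.4 to 78.6 CPM.

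The other 6 complex III subunits had log2 fold changes of 0.035 to 0.24, all above 0, with adjusted p-values of 0.226 and more by edgeR. Uqcrb, Uqcr10 and the hinge protein Uqcrh had every LKO value above every female Fl/Fl value. For Uqcrb these were 62.0, 64.6, 62.8 and 65.1 CPM in LKO, against 54.2, 59.8 and 47.5 CPM in female Fl/Fl. Uqcrfs1, the Rieske iron-sulphur protein, was the most abundant of the 8 by the deposited gene length at 175 FPKM and had 224, 240, 256 and 233 CPM in LKO, against 209, 226 and 217 CPM in female Fl/Fl (log2 0.13 ± 0.084, adjusted p = 0.482). Fl/Fl 7 lay above LKO 3, so its groups overlapped, as did those of the core proteins Uqcrc1 and Uqcrc2, at log2 0.10 ± 0.090 and 0.035 ± 0.095. Uqcr10 has a near-identical gene, 4930481A15Rik, counted apart with 5.39% as many reads; whether reads of one were counted to the other was not tested. The median log2 fold change of the 8 subunits was 0.20.

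Among the 16 ATP synthase subunits, 2 rose and 14 did not pass, with a median log2 fold change of 0.15. In the catalytic F1 head, Atp5e, the epsilon subunit of the central stalk (ENSMUSG00000016252, chromosome 2, 174461072 to 174464105), had 85, 89.2, 76.1 and 79.6 CPM in LKO, against 55.8, 64.9 and 62.0 CPM in female Fl/Fl and 95.7 CPM in the male library. All LKO values were the higher ones, a fold of 1.35 (log2 0.44 ± 0.093, adjusted p = 0.0483 by edgeR). Its neighbour in the central stalk, the delta subunit Atp5d, had 212, 231, 207 and 207 CPM in LKO, against 168, 186 and 182 CPM in female Fl/Fl, groups that did not overlap (log2 0.26 ± 0.085, adjusted p = 0.167). The alpha and beta subunits Atp5a1 and Atp5b, which form the catalytic hexamer, were the 2 most abundant of the 39 genes by the deposited gene length, at 315 and 284 FPKM. Atp5a1 had 937, 1012, 1011 and 949 CPM in LKO, against 875, 929 and 872 CPM in female Fl/Fl, a fold of 1.10 (log2 0.13 ± 0.087, adjusted p = 0.498). Atp5b and the gamma subunit Atp5c1 overlapped between the groups, at log2 0.11 ± 0.098 and 0.040 ± 0.099.

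In the peripheral stalk, which holds the head still, the median log2 fold change of the 4 subunits was 0.14 and none passed. Atp5o, the oligomycin sensitivity protein that caps the head, had 27.4, 26.2, 28.1 and 27.0 CPM in LKO, against 18.3, 23.2 and 19.2 CPM in female Fl/Fl (log2 0.42 ± 0.10, adjusted p = 0.0686 by edgeR). Its groups were apart, and the male library held 25.0 CPM. Subunit d, Atp5h, spread widely within the controls, with 132, 138, 133 and 127 CPM in LKO, against 137, 157 and 96.4 CPM in female Fl/Fl. Subunit b, Atp5f1, overlapped between the groups (log2 0.079 ± 0.086, adjusted p = 0.706). Atp5j, coupling factor 6, overlapped too (log2 0.21 ± 0.11). Atp5j shares 397 exon bases with Gabpa on the opposite strand, and Sdhaf2 shares 94 with Cpsf7; whether the counting used strand is not known from the labels. Of the 4 small membrane subunits none passed. Atp5k, Atp5j2 and Atp5mpl overlapped between the groups, while Atp5l, subunit g, had 59.9, 55.9, 59.7 and 55.9 CPM in LKO, against 44.7, 54.5 and 38.8 CPM in female Fl/Fl (log2 0.33 ± 0.11, adjusted p = 0.184). Atp5l has near-identical copies that held 4.05% as many reads.

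Subunit c forms the rotating ring, and 3 genes encode it: Atp5g1, Atp5g2 and Atp5g3. Their coding sequences differ in the cleaved leader, of 61, 71 and 66 codons, and then give the same 75 residues of the mature protein. The 225 bases that encode these residues are shown because they let the 3 transcripts be told apart although the proteins are the same. They are taken from GENCODE M21 transcripts (mm10) on chromosomes 11, 15 and 2, written 5′ to 3′, and capitals mark the 57 positions at which the 3 genes are not all alike.
Atp5g1: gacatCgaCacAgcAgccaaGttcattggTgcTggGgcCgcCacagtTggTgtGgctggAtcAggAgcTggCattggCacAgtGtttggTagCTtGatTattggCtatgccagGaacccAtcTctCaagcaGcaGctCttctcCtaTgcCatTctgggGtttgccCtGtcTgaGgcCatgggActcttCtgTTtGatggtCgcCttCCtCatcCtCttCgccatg
Atp5g2: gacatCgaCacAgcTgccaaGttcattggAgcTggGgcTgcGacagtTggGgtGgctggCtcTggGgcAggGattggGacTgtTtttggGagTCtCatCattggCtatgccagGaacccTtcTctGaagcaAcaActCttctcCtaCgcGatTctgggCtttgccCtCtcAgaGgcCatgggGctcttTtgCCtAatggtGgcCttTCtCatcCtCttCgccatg
Atp5g3: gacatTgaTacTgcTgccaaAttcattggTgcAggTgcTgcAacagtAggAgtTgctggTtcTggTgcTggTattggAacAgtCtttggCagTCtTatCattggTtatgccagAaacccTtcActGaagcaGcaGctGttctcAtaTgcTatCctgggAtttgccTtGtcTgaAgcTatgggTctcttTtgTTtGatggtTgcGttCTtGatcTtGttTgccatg
Atp5g1 and Atp5g2 differed at 34 of the 225 bases, Atp5g1 and Atp5g3 at 45, and Atp5g2 and Atp5g3 at 48. The longest run of bases shared by a pair was 20, between Atp5g1 and Atp5g2.

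Of the 3 genes only Atp5g3 passed the test. Atp5g3 (ENSMUSG00000018770, chromosome 2, 73908447 to 73911326) had 260, 276, 270 and 257 CPM in LKO 3, 4, 12 and 13, against 179, 195 and 202 CPM in female Fl/Fl 5, 7 and 9, and 287 CPM in the male library. The groups were apart by more than their spread, at 266 ± 8.67 CPM in LKO (SD, n = 4) and 192 ± 11.9 CPM in female Fl/Fl (SD, n = 3), a fold of 1.38 (log2 0.47 ± 0.084, adjusted p = 0.0277 by edgeR). Atp5g2 had 74.9, 82.3, 78.3 and 75.3 CPM in LKO, against 77.9, 76.4 and 78.6 CPM in female Fl/Fl and 79.4 CPM in the male library. Its log2 fold change was 0.0017 ± 0.078 and its groups overlapped fully. Atp5g1 had 173, 180, 170 and 143 CPM in LKO, against 139, 152 and 124 CPM in female Fl/Fl, with LKO 13 inside the female Fl/Fl range (log2 0.26 ± 0.11, adjusted p = 0.258).

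The make-up of subunit c transcripts was set out as shares, which do not depend on how the libraries are scaled. The shares and the order of the 3 genes do depend on the gene length used. Those per principal transcript, which place Atp5g1 above Atp5g2, are given further below. Per kilobase of deposited gene length, Atp5g3 gave 59.9, 59.6, 60.4 and 61.4% of subunit c transcripts in LKO, against 52.3, 53.9 and 56.3% in female Fl/Fl, with 62.3% for the male. The mean was 60.3 ± 0.81% in LKO (SD, n = 4) and 54.1 ± 2.01% in female Fl/Fl (SD, n = 3), a difference of 6.17 points. Atp5g2 gave 22.5, 23.1, 22.8 and 23.4% in LKO, against 29.6, 27.5 and 28.5% in female Fl/Fl, with 22.4% for the male. The mean share was 23.0 ± 0.41% in LKO and 28.5 ± 1.10% in female Fl/Fl, a difference of -5.56 points. The 3 shares are parts of one total, so the lower share of Atp5g2 is not a result apart from the higher share of Atp5g3. In CPM, Atp5g2 itself was at log2 0.0017 ± 0.078. For both genes the LKO shares lay apart from those of female Fl/Fl, while the male library lay beyond the LKO range on the far side. For each an exact two-sided permutation test on the 7 female libraries, which has 35 splits, gave p = 0.0571, the smallest it can give (0.0857 adjusted over the 3 genes). Atp5g1 gave 16.7 ± 1.10% in LKO and 17.3 ± 1.83% in female Fl/Fl, with overlapping values (exact permutation p = 0.571). With the male library counted as Fl/Fl the differences were 4.14 points for Atp5g3 and -4.04 points for Atp5g2 (adjusted exact permutation p = 0.214).

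**Figure D3:**
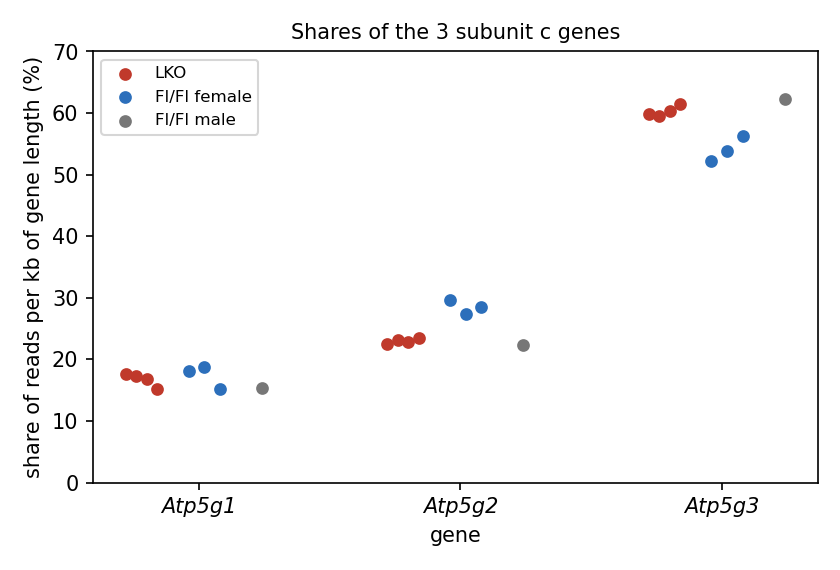
Share of subunit c transcripts from Atp5g1, Atp5g2 and Atp5g3 in each library, as percent of reads per kilobase of deposited gene length; red LKO (n = 4), blue female Fl/Fl (n = 3), grey the male Fl/Fl library. Atp5g3 lies at 59.6 to 61.4% in LKO and 52.3 to 56.3% in female Fl/Fl, and Atp5g2 at 22.5 to 23.4% and 27.5 to 29.6%.

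Of the 10 assembly factors, 1 rose and 9 did not pass, with a median log2 fold change of 0.15. The 4 that serve complex III had a median of 0.38, the 4 of complex II 0.062 and the 2 of ATP synthase 0.036. Uqcc2, needed to make and stabilise cytochrome b (ENSMUSG00000024208, chromosome 17, 27122663 to 27133916), had 11.7, 12.8, 13.1 and 10.9 CPM in LKO, against 7.86, 8.31 and 8.39 CPM in female Fl/Fl and 13.7 CPM in the male library. The groups were apart, with a fold of 1.48 (log2 0.57 ± 0.11, adjusted p = 0.0387 by edgeR). Uqcc3, which acts on cytochrome b after Uqcc2, had 11.8, 11.3, 12.1 and 11.8 CPM in LKO, against 5.59, 7.51 and 9.18 CPM in female Fl/Fl. All LKO values were higher, but the controls spread more (log2 0.66 ± 0.16, adjusted p = 0.0683). Uqcc1, the partner of Uqcc2, was higher in each LKO library than in each female Fl/Fl one (log2 0.20 ± 0.095, adjusted p = 0.338), and Bcs1l, which inserts the Rieske protein, overlapped (log2 0.11 ± 0.11).

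Sdhaf1, which helps to insert the iron-sulphur clusters of Sdhb, was the least abundant member by the deposited gene length at 0.569 FPKM. It had 2.12, 1.49, 1.44 and 1.39 CPM in LKO, against 0.868, 0.974 and 0.952 CPM in female Fl/Fl and 1.67 CPM in the male library (log2 0.79 ± 0.24, adjusted p = 0.141). All LKO values were above the female Fl/Fl values, and LKO 3 stood above the other LKO libraries. Sdhaf2, which helps to attach the flavin to Sdha, had the lowest log2 fold change of the 39, at -0.11 ± 0.096, with 20.4 to 22.6 CPM in LKO and 21 to 25.5 CPM in female Fl/Fl. Sdhaf3 was at -0.073 ± 0.13 and Sdhaf4, which helps to join Sdha to Sdhb, at 0.20 ± 0.13 (adjusted p = 0.511), both with overlapping groups. The chaperones of the F1 beta and alpha subunits, Atpaf1 and Atpaf2, were at 0.063 ± 0.11 and 0.0089 ± 0.086. Atp5s, coupling factor B, was at -0.078 ± 0.19, with overlapping groups.

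**Figure D4:**
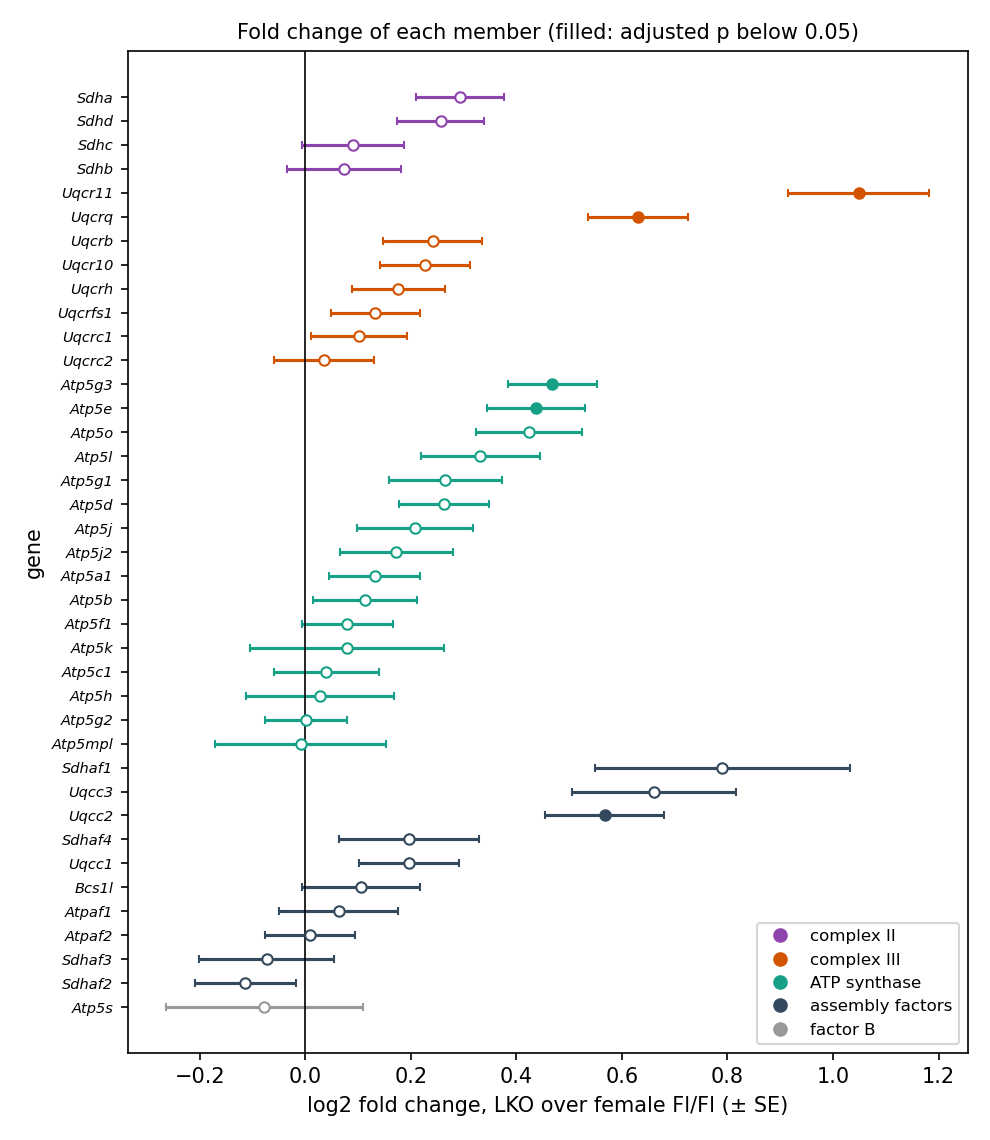
Log2 fold change, LKO over female Fl/Fl, of the 39 genes with its standard error from the edgeR fit; colours mark the complex, filled points passed an adjusted p of 0.05. The 5 filled points lie at 0.44 to 1.05, and the lowest of the 39 is Sdhaf2 at -0.11.

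The enzymes have further subunits and factors outside this set. They were listed as partner genes together with neighbouring genes such as Slc25a4, Slc25a5, Etfdh and Opa1, which are not parts of these enzymes. No tested partner gene passed in edgeR. Of 23 partner genes listed, 22 were tested, 15 had a log2 fold change above 0 (49.5% of all tested genes did), and the median was 0.080. Of the 22, 4 were higher in LKO at an unadjusted p below 0.05 in edgeR, where 9.22% of all tested genes were. DESeq2 passed 2, where it raised 1.82% of all genes. Cyc1, the cytochrome c1 of complex III, had 203, 220, 205 and 202 CPM in LKO, against 195, 198 and 173 CPM in female Fl/Fl (log2 0.14 ± 0.086, adjusted p = 0.470). Cytochrome b itself, mt-Cytb, had 8666 to 9586 CPM in LKO and 8979 to 10833 CPM in female Fl/Fl (log2 -0.13 ± 0.10, adjusted p = 0.587). mt-Atp6, subunit a of ATP synthase, had 72.7 to 80.8 CPM in LKO, 80.0 to 88.2 CPM in female Fl/Fl and 199 CPM in the male library (log2 -0.098 ± 0.082, adjusted p = 0.609). mt-Atp8 had 0.134 to 0.207 CPM in LKO, 0.131 to 0.320 CPM in female Fl/Fl and 0.214 CPM in the male library (log2 -0.47 ± 0.48). The mt-Atp8 and mt-Atp6 reading frames overlap, and how reads in both were counted is not stated in the labels. The 2 partner genes with the smallest p were Fmc1, a factor for assembly of F1 (log2 0.50 ± 0.14, adjusted p = 0.108), and Atpif1, the inhibitor that blocks reverse action of ATP synthase (log2 0.62 ± 0.18, adjusted p = 0.117). The 13 protein genes of mitochondrial DNA together took 4.79 to 5.33% of the reads in LKO, 5.31 to 6.34% in female Fl/Fl, with 5.46% for the male.

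Among 18 regulators of nuclear-encoded respiratory chain genes, Ppargc1b alone passed, and the median log2 fold change was -0.024. Ppargc1b, a coactivator of mitochondrial gene transcription, had 8.35, 11.2, 13 and 13.8 CPM in LKO, against 6.51, 4.05 and 6.09 CPM in female Fl/Fl and 9.27 CPM in the male library. The groups were apart (log2 1.06 ± 0.21, adjusted p = 0.0410 by edgeR), and without LKO 4, LKO 12, LKO 13, Fl/Fl 5 or Fl/Fl 7 its adjusted p was 0.0918 to 0.127. Named after their values were seen, Esrra, the receptor with which the coactivator works, had 24, 21.6, 22.8 and 23.7 CPM in LKO, against 16.3, 18.6 and 16.7 CPM in female Fl/Fl (log2 0.42 ± 0.091, adjusted p = 0.0521), and Ppargc1a was at 1.09 ± 0.27 (adjusted p = 0.114). Esrra stood at 31.0 CPM in the male library, above all 4 LKO libraries. Nrf1 and Gabpa, which bind promoters of many of these genes, were at -0.22 ± 0.13 and -0.19 ± 0.086 (adjusted p = 0.459 and 0.301).

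Promoters were searched on both strands for short motifs of such factors, from 250 bases before to 50 after the RefSeq start (GRCm38.p6), for the 31 members with an entry. The core of the NRF1 motif (GCGC, any base, then TGCGC) was present in 12 of 31 (38.7%), against 5.19% of 27025 promoters and 10.4% of the 11520 promoters of tested genes. Its palindromic form with A as that base, a subset of these matches, was in 3 (9.68%), against 1.07% and 2.1%. The GABP motif CCGGAAGT was in 4 (12.9%, against 4.31% and 8.32%), the YY1 motif AAGATGGC in 4 (12.9%, against 3.19% and 4.82%) and the ERR motif TCAAGGTCA in 2, Atp5g3 and Sdhd (6.45%, against 0.466% and 0.356%). A match describes letters only and is not a binding site. The 250 bases before the start, 5′ to 3′, are shown for 3 of the 4 risen genes with an entry, each with another motif in capitals. Atp5e, the fourth, held none of the motifs.
Uqcr11, chr10:80406822-80407071, minus strand, GABP motif: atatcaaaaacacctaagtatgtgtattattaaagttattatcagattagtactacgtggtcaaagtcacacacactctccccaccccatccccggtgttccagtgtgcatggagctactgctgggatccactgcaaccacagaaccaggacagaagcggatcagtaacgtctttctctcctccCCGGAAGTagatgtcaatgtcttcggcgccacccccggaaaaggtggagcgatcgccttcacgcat
Atp5g3, chr2:73911327-73911576, minus strand, ERR motif on the opposite strand: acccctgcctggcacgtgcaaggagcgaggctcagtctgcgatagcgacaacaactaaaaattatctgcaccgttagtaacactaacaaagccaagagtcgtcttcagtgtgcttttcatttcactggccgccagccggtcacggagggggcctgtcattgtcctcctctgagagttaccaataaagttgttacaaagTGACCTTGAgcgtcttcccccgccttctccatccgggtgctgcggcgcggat
Uqcc2, chr17:27133892-27134141, minus strand, NRF1 core on the opposite strand: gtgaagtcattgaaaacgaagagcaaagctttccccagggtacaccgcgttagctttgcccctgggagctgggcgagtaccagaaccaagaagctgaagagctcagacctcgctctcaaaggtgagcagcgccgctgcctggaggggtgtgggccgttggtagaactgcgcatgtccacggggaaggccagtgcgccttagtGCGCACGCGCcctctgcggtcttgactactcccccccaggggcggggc
The GABP match of Uqcr11 began 66 bases before the start, the ERR match of Atp5g3 52 bases before and the NRF1 match of Uqcc2 48 bases before. Past the start, Atp5g3 held an NRF1 core at base 13 and Uqcc2 a YY1 match at base 12.

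The principal GENCODE transcript was under 1000 bases in 20 of the 39 genes, and the fold changes of this comparison leaned towards short genes. Over all 16420 tested genes the Spearman correlation of the log2 fold change with the deposited gene length was -0.19, and over the 39 genes it was -0.19 (a description across genes, which are not independent). The lean differed between single libraries. With each library's log2 deviation from the female Fl/Fl mean, the correlation was -0.20 to -0.11 in LKO and -0.17 in the male. In female Fl/Fl it was 0.063 in replicate 5, -0.12 in replicate 7 and 0.021 in replicate 9. The median log2 fold change of all genes under 1 kb was 0.14, and that of the 7 members of this length was 0.24. At 1 to 2 kb it was 0.092 for all genes and 0.18 for 11 members, at 2 to 3 kb 0.040 and 0.073 for 7, at 3 to 4 kb 0.0096 and 0.11 for 6, and at 4 kb or more -0.047 and 0.15 for 8. The 39 genes thus had the higher median in each of the 5 classes of deposited length. By that length 7 of them are under 1 kb, while 20 have a principal transcript under 1000 bases. Classes by mRNA length were not made, so whether the members exceed genes of like mRNA length was not tested. After the trend of each library on the deposited gene length was removed, 3 genes passed (Uqcr11, Uqcrq and Atp5g3). Of the 39 log2 fold changes, 29 were then above 0. The median was then 0.11 in complex II, 0.090 in complex III, 0.13 in ATP synthase and 0.058 in the assembly factors. Of all genes, 0.901% rose. The part of length in the other results was not tested.

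**Figure D5:**
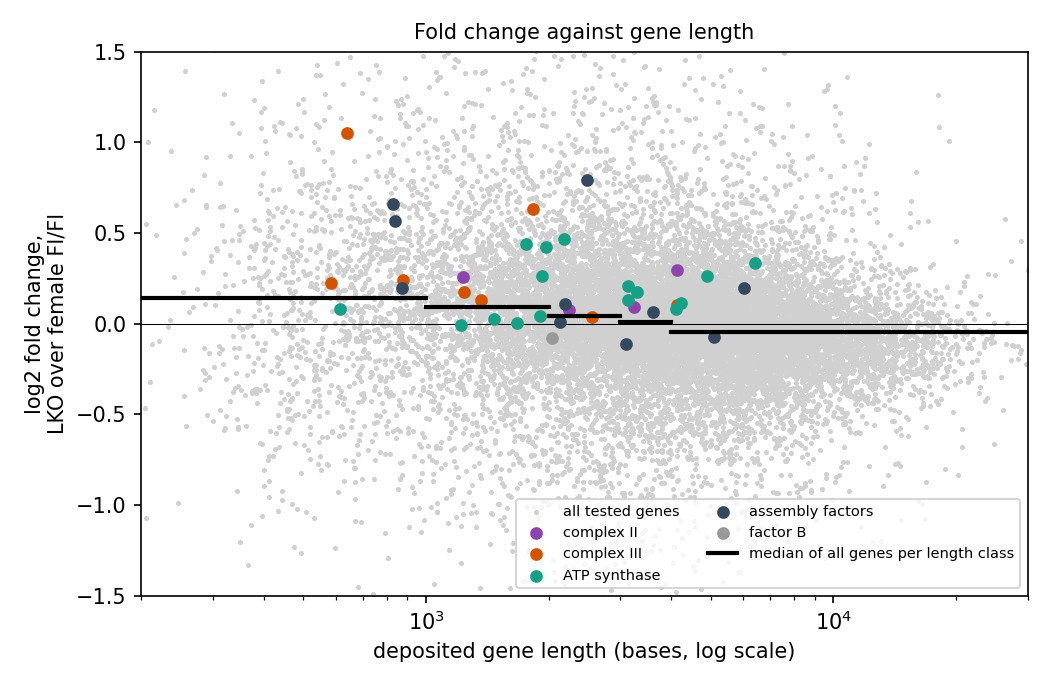
Log2 fold change, LKO over female Fl/Fl, against deposited gene length (log axis) for all tested genes (grey) and the 39 genes (coloured by complex); black lines are the medians of all genes in 5 length classes. A total of 165 grey points lie beyond 1.5 in either direction and are not drawn. The black lines step down with length, at 0.14 under 1 kb and -0.047 at 4 kb or more.

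The deposited length was the summed length of all annotated exons for 37 of the 39 genes, not that of one mRNA. It exceeded 2 times the length of the principal GENCODE transcript in 17 genes, and by the most in Atp5l, with 6443 against 544 bases. The FPKM of such genes are therefore low for their mRNA, among them Uqcrq (1831 against 405 bases) and Atp5e (1756 against 421). The order of genes by FPKM given above holds for the deposited length, and can differ with the principal one. Fold changes of the main fit do not use this length, while the length classes and the fit with the length trend removed do. For Atp5g1 it was 4912 against 596 bases, so the subunit c shares changed with the principal length. The mean shares were then 33.68% for Atp5g1, 21.31% for Atp5g2 and 45.01% for Atp5g3 in LKO. In female Fl/Fl they were 34.27, 26.01 and 39.72%. Atp5g1 thus lay above Atp5g2 in both groups, the reverse of their order by the deposited length. The shares of subunit c with the principal length differed between LKO and female Fl/Fl by 5.29 points for Atp5g3 and -4.70 points for Atp5g2.

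The calls and some class medians depended on single libraries, while the log2 fold changes of the 5 genes moved less. With each library left out in turn, that of Uqcr11 was 0.98 to 1.17, of Uqcrq 0.58 to 0.67, of Atp5g3 0.42 to 0.50, of Uqcc2 0.53 to 0.61 and of Atp5e 0.38 to 0.48. Fl/Fl 9 was the lowest of the 8 libraries in 22 of the 39 genes, where it was the lowest in 14.5% of all tested genes, and Fl/Fl 5 was the lowest in 12, against 13.3%. Without Fl/Fl 9, the median log2 fold change was 0.073 for ATP synthase and 0.073 for the assembly factors, 29 of the 39 log2 fold changes were above 0, and 6 genes passed, the same 5 and Uqcc3, where 2.84% of all genes rose. Without Fl/Fl 7 the ATP synthase median was 0.27 and 1 gene passed, Uqcr11, where 0.149% of all genes rose. Without Fl/Fl 5 none passed (0.0119%), and without both 5 and 7, which leaves 1 female control assumed to vary like the LKO group, none passed (0.0464%). Uqcr11 was then at log2 0.82 ± 0.19 (adjusted p = 0.182). Without the male library 4 passed (0.86%). Without LKO 3, 4, 12 or 13 in turn, 3, 1, 2 and 2 genes passed, where 0.786, 0.214, 0.662 and 0.262% of all genes rose. DESeq2 passed 8, adding Atp5o, Sdha and Uqcc3 to the 5, where it raised 1.82% of all genes. Uqcr11 passed with each single library left out except Fl/Fl 5 (adjusted p = 0.0654). The count fell to 0 without a sex term, a fit in which the male library counts as Fl/Fl and in which 0.00609% of all genes rose. The log2 fold change of Uqcr11 was then 0.53 ± 0.37 and that of Uqcrq 0.33.

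The split by Dbp was made from these data. Within the libraries of low Dbp, 2 LKO against 2 Fl/Fl, the median log2 difference of the 39 genes was 0.11, and within those of high Dbp, 2 LKO against Fl/Fl 9 alone, it was 0.27. Both differences were above 0 in 27 of the 39 genes (69.2%), against 28.1% of all tested genes. In 17 of the 39 genes, the 5 that rose among them, every LKO library is above every female Fl/Fl library (8.85% of all tested genes). For these 17 a positive difference on both sides is given beforehand, so they add nothing to the separation already described. The high side also rests on Fl/Fl 9, the lowest of the 8 libraries in 22 of the 39 genes. The sizes on the low and the high side were 1.32 and 0.66 for Uqcr11, 0.77 and 0.45 for Uqcrq, 0.52 and 0.38 for Atp5g3, 0.60 and 0.51 for Uqcc2, and 0.53 and 0.33 for Atp5e. With a term for this split in the edgeR fit, 6 genes passed, the same 5 and Uqcc3 (adjusted p = 0.0487), where 1.55% of all genes rose.

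The neighbouring enzymes of the chain were compared with the same female Fl/Fl libraries. Of 46 complex I genes 8 rose (17.4%) and none fell (median log2 0.24), where 1.02% of all tested genes rose. Of 13 tested cytochrome c oxidase genes 2 rose (15.4%) and none fell (median log2 0.30). Whether they differ from the 39 genes was not tested. In the authors' deposited table, which compares LKO with Fl/Fl by a model that the labels do not state, none of the 39 genes had an adjusted p below 0.05, where 0.409% of the 27110 listed genes did. There, by the authors' deposited values, 33 of the 39 log2 fold changes were above 0 and 1 gene, Atp5o, had an unadjusted p below 0.05 (0.0118), where 6.19% of all listed genes did. The deposited log2 fold changes of Uqcr11, Uqcrq, Atp5g3, Atp5e and Uqcc2 were 0.52, 0.33, 0.30, 0.24 and 0.34. They lie beside those of the fit that counts the male library as Fl/Fl (0.53, 0.33, 0.30, 0.25 and 0.34). The main fit, which compares with the 3 female libraries, gave 1.05, 0.63, 0.47, 0.44 and 0.57.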

How the data were processed

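RNA of 8 livers (4 LKO, 3 female and 1 male Fl/Fl) was measured by RNA-seq, with libraries made with the NEBNext Ultra RNA kit per the labels' protocols. The submitters' processing notes name the build mm10 and the tools STAR, fastp, featureCounts, HTSeq, edgeR, DESeq and DESeq2; versions, roles and strand setting are not given in the sources used here. In 1 table, the authors deposited whole-number read counts per gene, a normalised signal (the deposited counts divided by 1 factor per library, not used in tests) and FPKM values, which also use a gene length. The deposited table also gives the authors' log2 fold changes and p-values.

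Counts were tested in R 4.3.3 with edgeR 4.0.16: genes kept by filterByExpr (16420), TMM scaling, a genotype and a sex term fitted to the 8 libraries, quasi-likelihood F test with robust settings, Benjamini-Hochberg adjustment over all tested genes and a threshold of 0.05. Because 1 library is male, the genotype effect is that of 4 LKO against 3 female Fl/Fl libraries. Standard errors were taken as log2 fold change over root F, and the biological coefficient of variation was 20.4%. At these depths 3 reads are worth 0.0385 to 0.0428 CPM, which covers counting error only. No 2 libraries of a group agreed within sampling noise (lowest chi-square per degree of freedom 35.1, Fl/Fl 5 and 7). The labels state no separate litters, so p-values cover only spread among these samples. The procedure was also run on simulated counts with planted log2 fold changes of size 1 and 2, and its outcome is not given here. The simulation held no sex, gene length or Dbp difference, so it does not cover these features of the libraries.

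Subunit c shares were tested by an exact permutation test (scipy 1.17.1). Annotation and transcripts are GENCODE M21, promoters are RefSeq, and near-identical copies were found with BLAST 2.17.0 (at least 95% identity over at least 100 bases; 13 members have one). Of the 39 genes, 12 share exon bases with another gene.

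The members, lists and alternatives were chosen with earlier results of these data known. The genes named are the members past the threshold; in each class the 2 of smallest p and the most abundant per length; the subunit c genes; the 3 highest and 3 lowest log2 fold changes; partners and regulators past the threshold or else the 2 of smallest p; and mt-Cytb, mt-Atp6, mt-Atp8 and Cyc1. Further members are named to account for the whole set. Alternatives were no sex term, the 7 female libraries, DESeq2 size factors, upper quartile scaling, no filter, at least 10 reads in 4 libraries, gene length trends removed (lowess, span 0.3), limma 3.58.1 voom, limma trend on log2(FPKM + 1) and log2(FPKM + 0.1), DESeq2 1.42.0, each library left out, and Fl/Fl 5 and 7 left out. A term for the 2 sides of Dbp and subunit c shares per principal transcript were added after seeing the data.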

Additional observations from a re-analysis of the deposited data

Results flagged for a closer look

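Among 60 groups of 4 libraries searched, 7 held a library far from the other 3 by Dixon's gap-over-range measure at the 95% level. Chance gives about 1 in 20 for independent groups of genes not picked by their values. Many of these genes were named for a small p against female Fl/Fl, which favours genes whose female Fl/Fl values lie close together. The groups also share the same libraries, so the rate is no measure of these flags. In 6 of the 7 the library set apart was the male one among the Fl/Fl livers. It held 538 CPM of Sdha, where the 3 female Fl/Fl libraries held 412 to 429 CPM. It held 98.1 CPM of Uqcr11 (female Fl/Fl 32.4 to 41.6), 258 CPM of Uqcrq (124 to 142) and 13.7 CPM of Uqcc2 (7.86 to 8.39). It held 1.67 CPM of Sdhaf1 (0.868 to 0.974) and 199 CPM of mt-Atp6 (80.0 to 88.2). Among LKO, LKO 3 held 2.12 CPM of Sdhaf1, where the other 3 held 1.39 to 1.49 CPM. With 1 male library, sex and the individual cannot be told apart.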

How the results depend on the processing

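No paired analysis was possible because the genotypes share no replicate number. Over the 21 alternatives, of which the 7 female libraries and the male library left out are the same fit, Uqcr11, Uqcrq, Atp5g3, Uqcc2 and Atp5e kept their direction and passed the threshold in 18, 16, 14, 12 and 6; Atp5e missed it with the 7 female libraries alone (adjusted p = 0.0529 by edgeR) and with DESeq2 size factors (0.0517). The number of risen members was 5, and was 0 without a sex term or without Fl/Fl 5 and 7, 3 with the length trend removed, 4 with upper quartile scaling, DESeq2 size factors, the 7 female libraries and both FPKM fits, 6 with the term for the sides of Dbp, 7 without a filter and 8 with DESeq2. With each library left out it was 0 to 6. Of all genes tested, 1.02% rose in the main fit, 0.00609% without a sex term and 0.901% with the length trend removed. The share was 0.86% with the 7 female libraries, 1.55% with the Dbp term and 1.82% with DESeq2. It is not given here for the other scalings, the FPKM fits or the fit without a filter, so those counts have no such share beside them. The number of risen partner genes was 0, and was 1 without a filter and 2 with DESeq2 (0 to 1 with a library left out). The number of risen regulators was 1, and was 0 without a sex term, with voom, with limma on FPKM at both pseudocounts and without Fl/Fl 5 and 7, 2 without a filter and with the term for the sides of Dbp, and 3 with DESeq2 (0 to 2 with a library left out). Without a sex term the median log2 fold change was 0.15 in complex II, 0.11 in complex III, 0.091 in ATP synthase and 0.086 in the assembly factors. With the length trend removed it was 0.11 in complex II, 0.090 in complex III, 0.13 in ATP synthase and 0.058 in the assembly factors. Without Fl/Fl 5 and 7 it was 0.26 in complex II, 0.30 in complex III, 0.40 in ATP synthase and 0.27 in the assembly factors. With a library left out the medians were 0.15 to 0.21, 0.14 to 0.26, 0.073 to 0.27 and 0.073 to 0.18. Atp5g2 turned negative without a sex term (-0.0065), with the 7 female libraries (-0.0036), DESeq2 size factors (-0.0023), upper quartile scaling (-0.013), the length trend removed (-0.084), both FPKM fits (-0.0010), DESeq2 (-0.0023) and without Fl/Fl 5 and 7 (-0.025), and was -0.026 to 0.014 with a library left out. Without Fl/Fl 5 and 7, Sdhaf2 was 0.051, mt-Cytb 0.013 and mt-Atp8 0.29. Atp5s was -0.22 to 0.046 with a library left out, and the Atp5g1 share difference -1.65 to 0.063 points. The causes were not tested, beyond the fewer samples and, for the length trend, the trend itself. Precision is limited by 3 female controls, 2 of them with the highest Fos and all 3 with Junb above every LKO library, and by 1 male library. The genes mt-Atp8 and Sdhaf1 are also limited by depth.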
